A study of Homo sapiens with 16 samples.

Results

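The immediate early genes were followed in hPSC-CMs, cardiomyocytes made from human pluripotent stem cells, as 10 genes chosen by name: FOS, FOSB, JUN, JUNB, EGR1, ATF3, NR4A1, IER2, IER3 and KLF4. All 10 were found among the 43388 genes of the deposited table. RNA was measured in 16 libraries, 4 per group. All libraries came from wild-type WTC11, an induced pluripotent line of human origin, differentiated with the GiWi protocol (timed activation and then inhibition of Wnt signalling). Day 16 RPMI/B27 was the starting group, RPMI being a common basal medium and B27 a supplement that every group received. From Day 16 on, parallel cultures stayed in the standard medium (Day 30 RPMI/B27), moved to RPMI with 5 mM glucose (Day 30 RPMI_glcM/B27), or moved to human plasma-like medium (Day 30 HPLM/B27), and were collected on Day 30. Each library was 1 well of a 12-well plate, and the wells shared a single differentiation of banked progenitors, so the p-values below measure the spread between wells of that differentiation. The series' design text gives 3 wells per medium, whereas the sample labels give 4, and all 4 were used. Medium was renewed every 3 days, and the time between the last renewal and lysis is not given in the sources used here.

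Immediate early genes are switched on within minutes of a stimulus, before any new protein is made, by transcription factors that already sit in the nucleus. Serum response factor with its partners acts through CArG boxes, and CREB acts through cyclic AMP response elements (CRE). Many of the products are themselves transcription factors: FOS and JUN proteins pair to form AP-1, EGR1 and KLF4 are zinc finger factors, NR4A1 is an orphan nuclear receptor and ATF3 is a stress-induced partner of AP-1 proteins. In heart muscle they are known to respond to calcium entry, stretch, catecholamines and growth factors. Their transcripts are short-lived, so a level at 1 time point is a snapshot.

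The values are TPM (transcripts per 1000000), which take gene length into account and sum to 1000000 in each library. Reads behind each value were recovered from the steps between low values. The libraries held 7744768 to 16183655 reads on genes, and 1 read on a gene of 1 kb was worth 0.139 to 0.314 TPM. RNR1, the smaller mitochondrial rRNA, lay between 49.5 and 29276 TPM, the top wells being replicates 3 and 4 of Day 30 RPMI/B27 (14387 and 29276 TPM). Much more of the TPM total was taken by RNR2, the larger mitochondrial rRNA, at 410330 to 483359 TPM, and by the non-coding RNA RN7SK. RN7SK lay at 87563 to 103682 TPM at Day 16 and 106894 to 138467 TPM at Day 30. Their part in the TPM of other genes was not tested. The cardiomyocyte markers (8 genes, among them TNNT2, TTN and RYR2) summed to 11664 to 15866 TPM across all libraries. The fibroblast-like markers (10 genes) summed to 193 to 351 TPM at Day 16, 126 to 259 TPM in Day 30 RPMI/B27, 107 to 146 TPM in RPMI_glcM/B27 and 106 to 163 TPM in HPLM/B27. The hepatic endoderm-like markers (8 genes) summed to 401 to 709, 307 to 542, 87.9 to 198 and 62.7 to 194 TPM in the same order, and the endothelial-like markers (8 genes) to 42.7 to 54.8, 13.6 to 31.6, 16.4 to 25.4 and 19.2 to 31.2 TPM. The smooth muscle-like markers (6 genes) summed to 490 to 981, 288 to 1071, 317 to 425 and 345 to 558 TPM, with MYH11 at 0 in every library, and the macrophage-like markers (5 genes) to at most 3.32 TPM, with AIF1 at 0. The fibroblast-like and hepatic endoderm-like sums did not overlap between Day 16 and the RPMI_glcM/B27 or HPLM/B27 wells, the smooth muscle-like sums did not between Day 16 and RPMI_glcM/B27, and the endothelial-like sums did not between Day 16 and any Day 30 group, while the cardiomyocyte and macrophage-like sums of Day 16 overlapped those of every Day 30 group. Of the 8 endothelial-like genes, only KDR reached a mean of 1 TPM, with 47.0 TPM at Day 16, so that sum is close to KDR alone. The genes of a list did not all move alike. ALB went from 21.2 TPM at Day 16 to 242 TPM in Day 30 RPMI/B27, while AFP went from 441 to 138 TPM. POSTN went from 32.1 to 45.5 TPM, while COL1A1 went from 66.6 to 41.4 TPM. The part of these markers in the results below was not tested.

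JUN was by far the most abundant of the 10, with a mean of 103 TPM and 1003 to 2377 reads per library. ATF3, JUNB and IER2 followed with means of 11.5, 9.99 and 9.58 TPM. EGR1 and FOS lay at 2.65 and 2.48 TPM, with 20 to 59 and 7 to 70 reads per library. FOSB and NR4A1 lay at 0.847 and 0.745 TPM, with 2 to 27 and 11 to 68 reads. The ranges over libraries of ATF3, JUNB and IER2 overlapped each other, as did those of EGR1 and FOS and those of FOSB and NR4A1. TPM are per length, so the order of genes also depends on the lengths behind the values, whose source is not given. The implied lengths were 2104 bases for FOS and 8077 bases for NR4A1, which had means of 22.6 and 26.5 reads per library.

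KLF4 (chromosome 9, 107484852 to 107489769, GRCh38), a factor of epithelial, vascular and pluripotent cells, was at or near 0. It had 0 reads in 8 of 16 libraries, 17 reads in all and at most 4 in any library, where 3 reads would be 0.137 to 0.311 TPM depending on the library. By group it had 6 reads at Day 16 (0, 2, 2 and 2 in the wells), 7 in Day 30 RPMI/B27 (0, 2, 4 and 1), 1 in RPMI_glcM/B27 (0, 1, 0 and 0) and 3 in HPLM/B27 (0, 0, 3 and 0), and all groups overlapped. No difference in KLF4 between groups was detectable at this depth. IER3 (chromosome 6, 30743199 to 30744547), a small protein that regulates survival and MAP kinase signalling, was listed at 0 in 15 libraries and had 1 read in the other, replicate 3 of Day 30 RPMI/B27. That value cannot be read as absence of the transcript. Of 72 other protein-coding genes within 1000000 bases of IER3, 71 had a mean under 1 TPM and 52 were at 0 in every library, against 38.4% under 1 TPM and 10.8% at 0 among all 18768 protein-coding genes. TUBB, a tubulin gene in that window, was at 0 in all 16 libraries, and RPS18, a ribosomal protein gene further along chromosome 6, was at 0 in 15; both were picked after their values were seen. Around KLF4 the window held only 2 such genes, of which 0 were under 1 TPM. Among the members, the next highest shares were around NR4A1, where 30 of 46 genes (65.2%) were under 1 TPM and 19 (41.3%) at 0. NR4A1 itself had at least 11 reads in every library. The 8 other members are described below.

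**Figure D1:**
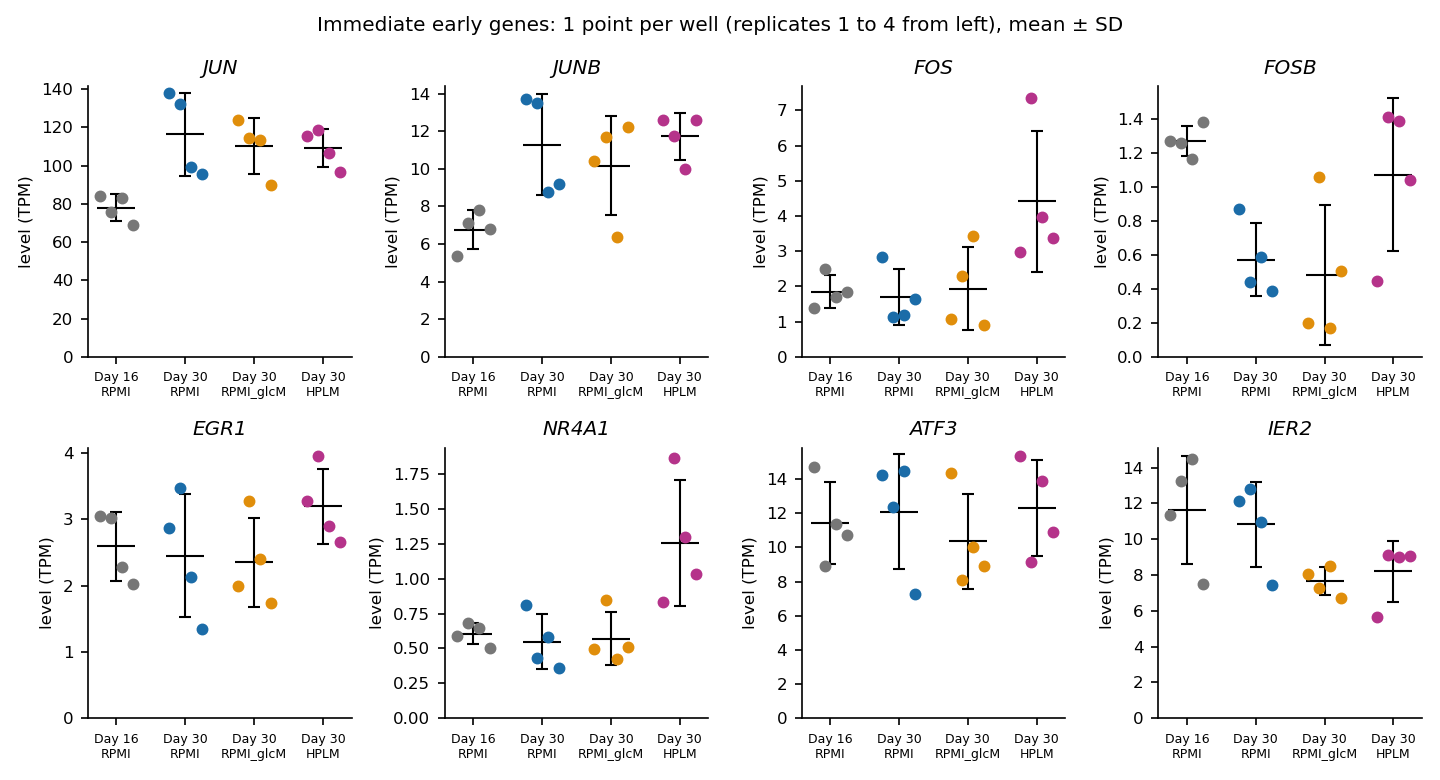
Level in TPM (vertical axes, from 0) of the 8 members with a mean of at least 10 reads, in the 4 groups (horizontal axes); each point is 1 well and the bars are the mean ± SD. JUN lies between 68.9 and 84.0 TPM in all Day 16 wells and between 89.6 and 138 TPM in all Day 30 wells, while FOS and NR4A1 are highest in HPLM/B27.

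In all, 6 comparisons were made, each Day 30 group against Day 16 and the Day 30 groups against each other. The 16122 genes whose mean reached 1 TPM, 6 of the 10 members among them, were tested with limma on log2(TPM + 1), so fold changes of low genes are understated. Against Day 16, JUN and JUNB (2 of 6) rose in Day 30 RPMI/B27, JUN (1 of 6) rose in RPMI_glcM/B27, and FOS, JUN and JUNB (3 of 6) rose in HPLM/B27, while none of the 6 fell in any of these comparisons. Over all genes tested, 19.9%, 21.1% and 25.4% were called in the same 3 comparisons, beside 33.3%, 16.7% and 50% of the 6 members. With 6 members, these shares differ from the background by few genes, and no departure from it is read from them. Of all genes called, 336 were higher and 2867 lower in Day 30 RPMI/B27, 538 and 2862 in RPMI_glcM/B27, and 483 and 3605 in HPLM/B27. That split depended on the scaling: in limma-voom on recovered reads (described below) it was 1603 and 1749, 2275 and 2316, and 2343 and 2221. At an unadjusted p under 0.05, 2, 3 and 4 of 6 members passed against Day 16, where 36.2%, 33.9% and 39.4% of all genes did. Among the Day 30 media 0 of 6 members passed in each comparison, where 2.2% (RPMI_glcM/B27 against RPMI/B27), 2.41% (HPLM/B27 against RPMI/B27) and 0.0682% (HPLM/B27 against RPMI_glcM/B27) of all genes did. At an unadjusted p under 0.05 it was 1 of 6 in each, where 14.9%, 15.2% and 6.53% of all genes passed.

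Over all genes tested, log2 fold changes against Day 16 had medians of -0.28, -0.22 and -0.29 in the 3 Day 30 groups, which a member's own value is to be read against. The medians of the members tested were -0.02, -0.07 and 0.35. Between the Day 30 media the medians of all genes were 0.05, -0.02 and -0.06, and those of the members -0.11, 0.06 and 0.23. After rescaling each library by a median-of-ratios factor, which sets the typical gene at no change, the members' medians were 0.29, 0.12 and 0.65 against Day 16.

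JUN (chromosome 1, 58780791 to 58784047), the main DNA-binding partner of FOS proteins in AP-1 and a target of the JNK kinases, was higher in every Day 30 group. At Day 16 the 4 wells (replicates 1 to 4, as in all lists of wells here) held 84.0, 75.6, 82.9 and 68.9 TPM. At Day 30 they held 138, 132, 99.3 and 95.8 TPM in RPMI/B27, 124, 115, 113 and 89.6 TPM in RPMI_glcM/B27, and 115, 119, 106 and 96.4 TPM in HPLM/B27. The lowest Day 30 well was above the highest Day 16 well, while the 3 Day 30 groups overlapped. The means were 77.8 ± 7.04 TPM at Day 16 and 116 ± 21.8, 110 ± 14.6 and 109 ± 9.93 TPM at Day 30 (SD, n = 4). JUN rose by 0.56 (standard error 0.14, adjusted p = 0.0111), 0.49 (standard error 0.14, adjusted p = 0.0178) and 0.48 (standard error 0.14, adjusted p = 0.0180) on the log2 scale in the standard, 5 mM glucose and plasma-like media (limma). After median-of-ratios rescaling the same differences were 0.90, 0.76 and 0.83. Between the Day 30 media the log2 differences were -0.07 (95% interval -0.36 to 0.22) for RPMI_glcM/B27 against RPMI/B27, -0.08 (-0.37 to 0.21) for HPLM/B27 against RPMI/B27 and -0.01 (-0.30 to 0.28) for HPLM/B27 against RPMI_glcM/B27. With only the 2 groups compared in the fit, the rise in RPMI/B27 was no longer called (adjusted p = 0.0724), and without replicate 1 of the Day 30 group the rise in RPMI_glcM/B27 was at an adjusted p of 0.0537 and that in HPLM/B27 at 0.0514. In a bulk sample, more cells with a transcript and more transcript per cell cannot be told apart.

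JUNB (chromosome 19, 12791486 to 12793315), a JUN relative known to restrain JUN in many settings, was also higher at Day 30. Its 4 wells held 5.37, 7.09, 7.80 and 6.81 TPM at Day 16. They held 13.7, 13.5, 8.74 and 9.21 TPM in Day 30 RPMI/B27, 10.4, 11.7, 6.36 and 12.2 TPM in RPMI_glcM/B27 and 12.6, 11.7, 9.96 and 12.6 TPM in HPLM/B27. The Day 16 wells lay below all wells of RPMI/B27 and HPLM/B27, but replicate 3 of RPMI_glcM/B27 lay among them. JUNB rose by 0.65 (standard error 0.19, adjusted p = 0.0279) in RPMI/B27 and by 0.72 (standard error 0.19, adjusted p = 0.0129) in HPLM/B27. In RPMI_glcM/B27 the log2 difference was 0.50 (standard error 0.19, adjusted p = 0.0760), and without replicate 3 it was 0.69 and called (adjusted p = 0.0143). The difference between RPMI_glcM/B27 and HPLM/B27 was itself not called (log2 difference 0.22, 95% interval -0.19 to 0.62, adjusted p = 0.936), and against Day 30 RPMI/B27 the log2 differences were -0.15 (-0.55 to 0.26) in RPMI_glcM/B27 and 0.07 (-0.34 to 0.48) in HPLM/B27. The rise in RPMI/B27 was lost without replicate 1 of either group, at adjusted p = 0.0897 without the Day 16 library and 0.0524 without the Day 30 library, and with only the 2 groups in the fit (0.0860).

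JUND, the third member of the JUN family, is known to be less inducible and offers a ratio that no scaling of a library can move. The ratio was chosen after the data were seen. JUND itself was at 92.0 ± 10.3 TPM at Day 16 and 95.9 ± 14.8, 96.4 ± 16.4 and 82.9 ± 4.91 TPM in Day 30 RPMI/B27, RPMI_glcM/B27 and HPLM/B27 (SD, n = 4). Its log2 difference of HPLM/B27 from Day 16 was -0.14 (adjusted p = 0.453 in limma), so the ratios in HPLM/B27 also hold a lower mean of JUND. JUN over JUND was 0.837, 0.883, 0.820 and 0.852 in the Day 16 wells. It was 1.22, 1.37, 1.03 and 1.24 in Day 30 RPMI/B27, 1.09, 1.08, 1.31 and 1.13 in RPMI_glcM/B27 and 1.28, 1.48, 1.33 and 1.18 in HPLM/B27. All 12 Day 30 wells were above all 4 Day 16 wells. In a two-sided exact permutation test of 4 wells against 4, each Day 30 group differed from Day 16 at p = 0.0286, the smallest value this design can give, and at 0.0857 after adjustment over the 18 ratio tests made, so none passed the correction. JUNB over JUND went from 0.0535 to 0.0843 at Day 16 up to 0.0904 to 0.140 in RPMI/B27 and 0.125 to 0.154 in HPLM/B27 without overlap (exact permutation p = 0.0286, adjusted 0.0857 for each), and to 0.0735 to 0.155 in RPMI_glcM/B27 with overlap. As a share of the summed TPM of the family, JUN went from 44.1% ± 0.707 at Day 16 to 51.9% ± 2.51, 50.9% ± 2.72 and 53.5% ± 2.39 at Day 30 (SD, n = 4). By TPM, the family member with the highest level was thus JUND at Day 16 and JUN at Day 30.

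**Figure D2:**
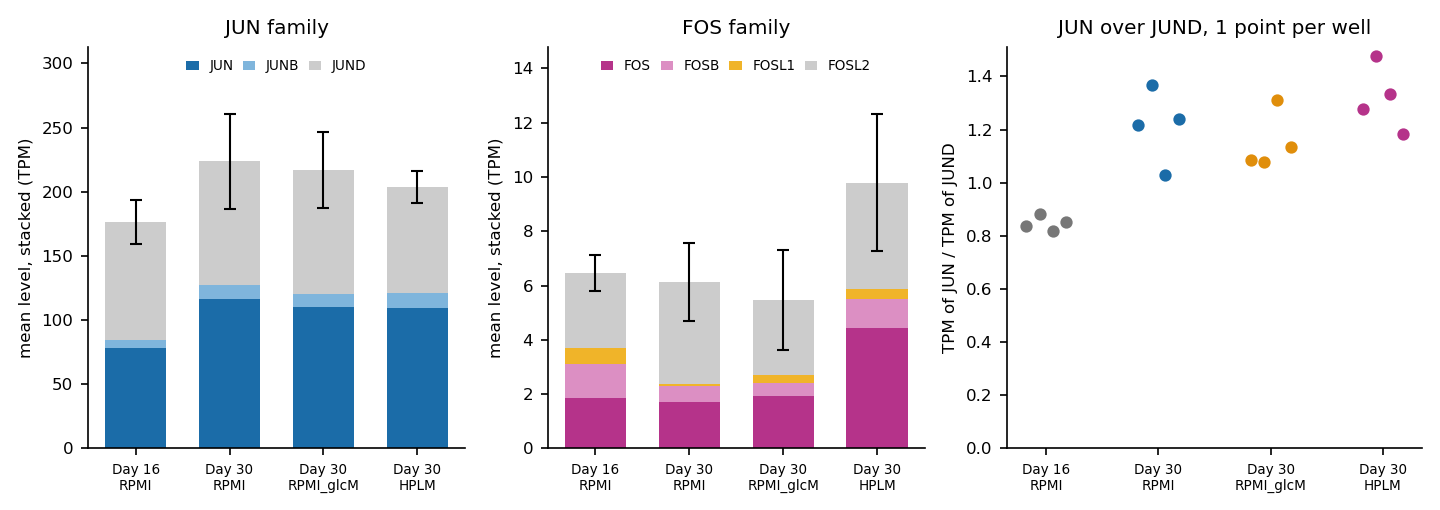
Left and middle, mean TPM of the JUN and FOS family genes stacked in each group, with the SD of the summed level over 4 wells as the bar. Right, TPM of JUN divided by TPM of JUND in each well (1 point per well), with the 4 Day 16 wells between 0.820 and 0.883 and the 12 Day 30 wells from 1.03 to 1.48.

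FOS (chromosome 14, 75278828 to 75282230), the classic immediate early gene and an inducible partner in AP-1, was highest in HPLM/B27. Its wells held 1.39, 2.49, 1.70 and 1.83 TPM at Day 16, from 11, 21, 13 and 17 reads. At Day 30 they held 2.85, 1.14, 1.19 and 1.65 TPM in RPMI/B27 (22, 13, 18 and 19 reads) and 1.07, 2.30, 3.44 and 0.909 TPM in RPMI_glcM/B27 (9, 17, 23 and 7 reads). In HPLM/B27 they held 2.99, 7.37, 3.96 and 3.38 TPM (30, 70, 43 and 29 reads). Every HPLM/B27 well was above every Day 16 and every Day 30 RPMI/B27 well, and replicate 3 of RPMI_glcM/B27 was above the lower 2 HPLM/B27 wells. FOS rose by 0.88 (standard error 0.29, adjusted p = 0.0366) in HPLM/B27 against Day 16. Against Day 30 RPMI/B27 the log2 difference was 0.98 (standard error 0.29, 95% interval 0.36 to 1.60, adjusted p = 0.0958), and against RPMI_glcM/B27 it was 0.91 (standard error 0.29, 95% interval 0.29 to 1.53, adjusted p = 0.421). The other Day 30 media did not separate from Day 16, with log2 differences of -0.10 (95% interval -0.72 to 0.51) in RPMI/B27 and -0.03 (-0.65 to 0.58) in RPMI_glcM/B27, which were 0.11 and 0.13 after rescaling, and the log2 difference between these media was 0.07 (-0.55 to 0.69). The HPLM/B27 rise against Day 16 was not called when any of 6 libraries was left out, namely replicates 1, 3 and 4 of Day 16 and 2, 3 and 4 of HPLM/B27 (adjusted p from 0.0505 to 0.111, highest without HPLM/B27 replicate 2, where the log2 difference was 0.65), nor with all genes above 0 in the fit (0.0689).

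Because a pseudocount of 1 TPM weighs heavily on genes at 1 to 4 TPM, the recovered reads were also tested with limma-voom, which needs no pseudocount of that size and takes 8 members with a mean of at least 10 reads among 15423 genes. In HPLM/B27 against Day 16, 5 of 8 members were called (FOS, EGR1, NR4A1, JUN and JUNB, all higher), where 29.6% of all genes were. In HPLM/B27 against Day 30 RPMI/B27, FOS and NR4A1 (2 of 8) were called where 16% of all genes were, and in HPLM/B27 against RPMI_glcM/B27, NR4A1 (1 of 8) where 1.74% were. In Day 30 RPMI/B27 against Day 16, JUN and JUNB (2 of 8) were called, with a background of 21.7%, and in RPMI_glcM/B27 against Day 16, JUN and JUNB higher and FOSB lower (3 of 8), with 29.8%. In RPMI_glcM/B27 against Day 30 RPMI/B27, IER2 (1 of 8) was called as lower, with 12.7%. For FOS the log2 fold changes of HPLM/B27 were 1.52 (standard error 0.36, adjusted p = 0.00311) against Day 16, 1.47 (standard error 0.34, adjusted p = 0.00585) against RPMI/B27 and 1.399 (standard error 0.38, adjusted p = 0.0669) against RPMI_glcM/B27. Leaving out each library in turn kept the FOS calls against Day 16 and against RPMI/B27 in all 8 fits each, with adjusted p of at most 0.0135 and 0.0341.

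NR4A1 (chromosome 12, 52022832 to 52059503), also called NUR77, a nuclear receptor induced by calcium and catecholamines, followed FOS in HPLM/B27. Its wells held 0.592, 0.680, 0.646 and 0.505 TPM at Day 16 and 0.809, 0.434, 0.586 and 0.363 TPM in Day 30 RPMI/B27. In RPMI_glcM/B27 they held 0.497, 0.847, 0.428 and 0.507 TPM, and in HPLM/B27 0.830, 1.86, 1.30 and 1.03 TPM, the latter from 32 to 68 reads against 11 to 34 in all other wells. All HPLM/B27 wells were above all wells of Day 16 and of Day 30 RPMI/B27, while replicate 2 of RPMI_glcM/B27 exceeded the lowest HPLM/B27 well by little. NR4A1 was below the 1 TPM filter and so was tested by itself: HPLM/B27 differed on log2(TPM + 1) by 0.47 from Day 16 and by 0.53 from Day 30 RPMI/B27 (two-sided exact permutation p = 0.0286 each, the smallest possible) and by 0.51 from RPMI_glcM/B27 (exact permutation p = 0.0571). In limma-voom the log2 fold changes were 1.34 (standard error 0.27, adjusted p = 0.000826), 1.24 (standard error 0.26, adjusted p = 0.00266) and 1.19 (standard error 0.29, adjusted p = 0.0371). The comparisons with Day 16 and with Day 30 RPMI/B27 held in all 8 fits with a library left out (adjusted p at most 0.00349 and 0.0179), whereas the third held in 1 of 8 (adjusted p 0.0188 to 0.144). Against Day 16, NR4A1 in RPMI/B27 and RPMI_glcM/B27 differed by 0.11 (95% interval -0.53 to 0.74) and 0.15 (-0.53 to 0.84) in limma-voom, and from each other by 0.05 (-0.61 to 0.71). On log2(TPM + 1) the same 2 differences from Day 16 were -0.06 and -0.04 (exact permutation p = 0.514 and 0.743).

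EGR1 (chromosome 5, 138465479 to 138469303), a zinc finger factor induced by the ERK pathway through serum response factor, had its highest mean in HPLM/B27 with much overlap. Its wells held 3.05, 3.02, 2.28 and 2.02 TPM at Day 16, 2.87, 3.47, 2.13 and 1.34 TPM in Day 30 RPMI/B27, 2.00, 3.27, 2.41 and 1.74 TPM in RPMI_glcM/B27 and 3.27, 3.95, 2.91 and 2.66 TPM in HPLM/B27. All 4 groups overlapped. Against Day 16 the log2 difference of HPLM/B27 was 0.23 (standard error 0.21, adjusted p = 0.435), but 0.48 (adjusted p = 0.0201) after median-of-ratios rescaling and 0.65 (standard error 0.20, adjusted p = 0.0189) in limma-voom, so the call depended on the scaling. In Day 30 RPMI/B27 and RPMI_glcM/B27 the log2 differences from Day 16 were -0.09 (95% interval -0.53 to 0.35) and -0.11 (-0.55 to 0.33), and 0.14 and 0.08 after rescaling. Between the Day 30 media they were -0.02 (-0.46 to 0.42) for RPMI_glcM/B27 against RPMI/B27, 0.31 (-0.13 to 0.75) for HPLM/B27 against RPMI/B27 and 0.33 (-0.10 to 0.77) for HPLM/B27 against RPMI_glcM/B27. The limma-voom call was lost without replicate 3 or 4 of Day 16 or replicate 2 of HPLM/B27 (adjusted p 0.0535, 0.0542 and 0.0571).

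FOSB (chromosome 19, 45467996 to 45475179), a FOS relative, was low in the Day 30 RPMI-based media. Its wells held 1.27, 1.26, 1.16 and 1.38 TPM at Day 16 and 0.866, 0.440, 0.589 and 0.388 TPM in Day 30 RPMI/B27. They held 0.199, 1.06, 0.167 and 0.506 TPM in RPMI_glcM/B27, from 3, 14, 2 and 7 reads, and 0.444, 1.41, 1.39 and 1.04 TPM in HPLM/B27. Both RPMI-based groups lay below all Day 16 wells, whereas HPLM/B27 overlapped with every group. On log2(TPM + 1), RPMI/B27 and RPMI_glcM/B27 differed from Day 16 by -0.54 and -0.65 (exact permutation p = 0.0286 each, the smallest possible), and HPLM/B27 by -0.16 (exact permutation p = 0.571). After median-of-ratios rescaling, the values were -0.37 (exact permutation p = 0.0286) and -0.51 (0.0857). In limma-voom the log2 fold changes were -0.88 (standard error 0.40, adjusted p = 0.132) in RPMI/B27 and -1.39 (standard error 0.48, adjusted p = 0.0354) in RPMI_glcM/B27, and the latter was called in 4 of 8 fits with a library left out (adjusted p 0.0163 to 0.154; lost without replicates 1 or 4 of Day 16 and 1 or 3 of RPMI_glcM/B27). In HPLM/B27 the limma-voom difference from Day 16 was 0.00 (95% interval -0.77 to 0.77). Between the Day 30 media the differences on log2(TPM + 1) were -0.11 for RPMI_glcM/B27 against RPMI/B27 (exact permutation p = 0.6), 0.38 for HPLM/B27 against RPMI/B27 (exact permutation p = 0.114) and 0.49 for HPLM/B27 against RPMI_glcM/B27 (exact permutation p = 0.143).

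FOSL2, a FOS relative that was not chosen here as a member, was the most abundant of the FOS family at Day 16. It made up 42.9% ± 9.46 of the summed family TPM, against 28.7% ± 7.13 for FOS (SD, n = 4). The family sum also holds FOSB and FOSL1, and FOSL1, likewise no member, made up 8.54% ± 6.30 at Day 16 (0.564 ± 0.415 TPM). In HPLM/B27, FOS made up 44.0% ± 9.27 and FOSL2 41.4% ± 8.36. The summed level of the family was 6.47 ± 0.664 TPM at Day 16, 6.13 ± 1.42 and 5.47 ± 1.85 TPM in the Day 30 RPMI-based groups and 9.80 ± 2.53 TPM in HPLM/B27, against 177 to 224 TPM for the mean summed JUN family. FOS over FOSL2 was 0.808 to 1.94 in HPLM/B27 and 0.231 to 0.792 in Day 30 RPMI/B27 without overlap (exact permutation p = 0.0286, adjusted 0.0857), and overlapped in every other comparison.

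FOS, FOSB and EGR1 are shown here with the bases before their starts because they are the members that hold a CArG box, the binding motif of serum response factor, within 400 bases upstream of a RefSeq start. The window was searched on both strands in 35116 starts, 9 members among them, and 1.90% of all starts held a CArG box. The CRE (TGACGTCA) was found in FOSB alone among the members, and in 1.89% of all starts. The AP-1 site (TGANTCA) was found before 0 of the 9 members and in 9.84% of starts. IER3 was not in the promoter table. The stretches below come from the plus strand of hg38, read 5′ to 3′, with the motifs in capitals. FOS is chr14:75278494-75278543, FOSB is chr19:45467651-45467751, the distal EGR1 stretch is chr5:138465079-138465144 and the proximal EGR1 stretch is chr5:138465354-138465425. The CArG box of FOS starts 314 bases before the RefSeq start, that of FOSB 274 bases, with its CRE at 325 bases, and the 4 of EGR1 at 380, 364, 105 and 83 bases. A match describes these letters and was not tested for binding in these cells.
FOS: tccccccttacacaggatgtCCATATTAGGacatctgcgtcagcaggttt
FOSB: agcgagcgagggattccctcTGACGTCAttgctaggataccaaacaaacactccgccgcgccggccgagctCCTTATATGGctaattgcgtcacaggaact
EGR1 distal: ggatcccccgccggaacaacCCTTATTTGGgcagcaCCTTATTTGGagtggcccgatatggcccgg
EGR1 proximal: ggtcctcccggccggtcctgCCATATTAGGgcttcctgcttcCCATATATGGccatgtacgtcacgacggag

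FOS and the proximal EGR1 stretch hold the same 10 letters of the box.

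ATF3 (chromosome 1, 212565407 to 212620777), a stress-induced factor of the ATF/CREB family, was at like levels throughout. Its wells held 14.7, 8.94, 11.4 and 10.7 TPM at Day 16, 14.2, 12.4, 14.5 and 7.27 TPM in Day 30 RPMI/B27, 14.3, 8.08, 10.04 and 8.94 TPM in RPMI_glcM/B27 and 15.3, 9.12, 13.9 and 10.9 TPM in HPLM/B27. The wells of 1 group differed by more than the group means did, which lay between 10.3 and 12.3 TPM. The log2 differences from Day 16 were 0.05 (95% interval -0.42 to 0.52), -0.14 (-0.62 to 0.33) and 0.09 (-0.38 to 0.57) in the standard, 5 mM glucose and plasma-like media, and 0.36, 0.10 and 0.41 after rescaling, none of them called. Between the Day 30 media they were -0.19 (-0.67 to 0.28) for RPMI_glcM/B27 against RPMI/B27, 0.04 (-0.43 to 0.52) for HPLM/B27 against RPMI/B27 and 0.24 (-0.24 to 0.71) for HPLM/B27 against RPMI_glcM/B27.

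IER2 (chromosome 19, 13150411 to 13154911), a nuclear protein induced by growth factors, had lower means in RPMI_glcM/B27 and HPLM/B27 than in either RPMI/B27 group, with overlap. Its wells held 11.3, 13.2, 14.4 and 7.52 TPM at Day 16 and 12.1, 12.8, 10.9 and 7.47 TPM in Day 30 RPMI/B27. They held 8.08, 7.30, 8.49 and 6.73 TPM in RPMI_glcM/B27 and 5.66, 9.13, 9.01 and 9.06 TPM in HPLM/B27. In both RPMI/B27 groups replicates 1 to 3 lay above every well of the other media, and replicate 4 lay among them. Against Day 16 the log2 differences were -0.08 (95% interval -0.51 to 0.34) in RPMI/B27, -0.52 (-0.94 to -0.09, adjusted p = 0.0793) in RPMI_glcM/B27 and -0.44 (-0.87 to -0.02, adjusted p = 0.113) in HPLM/B27, none past the threshold. After rescaling they were 0.23 (adjusted p = 0.341), -0.27 (adjusted p = 0.213) and -0.12 (adjusted p = 0.601), and in limma-voom 0.26, -0.29 and -0.13 (adjusted p = 0.268, 0.262 and 0.609). Without replicate 4 of Day 16 the TPM differences of RPMI_glcM/B27 and HPLM/B27 were -0.69 (adjusted p = 0.0178) and -0.62 (adjusted p = 0.0272). Against Day 30 RPMI/B27, RPMI_glcM/B27 differed by -0.43 (adjusted p = 0.327), by -0.49 after rescaling (adjusted p = 0.0458) and by -0.56 in limma-voom (adjusted p = 0.0499), and HPLM/B27 differed by -0.36 (adjusted p = 0.439). HPLM/B27 and RPMI_glcM/B27 differed by 0.07 (95% interval -0.35 to 0.50). The limma-voom call was lost in all 8 fits with a library left out (adjusted p 0.0562 to 0.135).

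**Figure D3:**
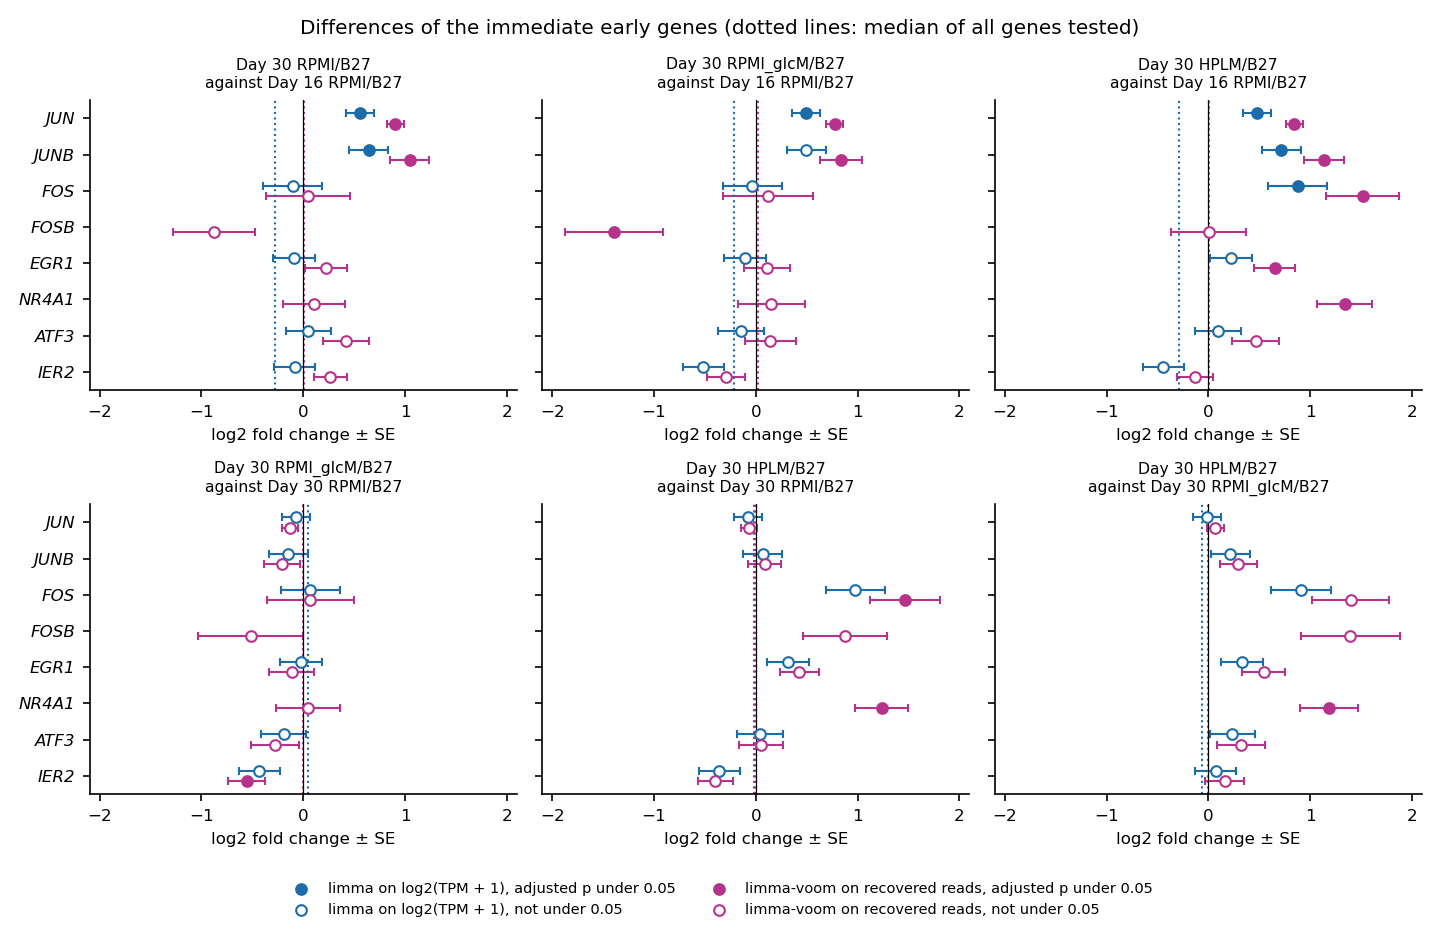
Log2 fold change ± standard error (horizontal axes) of 8 members (vertical axes) in the 6 comparisons; blue, limma on log2(TPM + 1), which covers 6 of them; purple, limma-voom on recovered reads; filled points have an adjusted p under 0.05, and dotted lines are the medians of all genes tested. JUN lies to the right of both dotted lines in all 3 comparisons with Day 16, and FOS and NR4A1 in all 3 comparisons of HPLM/B27.

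The spread between wells differed among the members. The residual SD of log2(TPM + 1) around the group means was 0.19 for JUN, 0.28 for JUNB, 0.28 for EGR1, 0.30 for IER2, 0.34 for ATF3 and 0.44 for FOS, against a median of 0.27 over all genes tested (quartiles 0.22 and 0.35). FOS varied more than 85.5% of the genes tested, ATF3 more than 73.3% and JUN more than 13.2%. Counting error alone would give 0.04 for JUN, 0.10 for ATF3, 0.15 for JUNB, 0.14 for IER2, 0.18 for EGR1 and 0.22 for FOS. The observed spread was thus 1.60 to 2.05 times the counting error for EGR1, JUNB, FOS and IER2, 3.44 times for ATF3 and 5.02 times for JUN. FOSB and NR4A1 stood at 1.62 and 1.58 times. These ratios use the SDs before rescaling, so they also hold differences in library scaling. Counting error falls as reads rise, and JUN and ATF3 had the most reads (means of 1515 and 200 per library), so the order of the ratios also follows read depth. After median-of-ratios rescaling the SD of JUN went from 0.19 to 0.12, that of EGR1 from 0.28 to 0.19 and that of IER2 from 0.30 to 0.22, whereas that of ATF3 was 0.34 in both and that of FOS 0.44 and 0.41. The rescaled SD of EGR1 was thus close to its counting error of 0.18. The widest group was FOSB in RPMI_glcM/B27, where the highest well was 6.35 times the lowest, and for FOS that ratio was 3.78 in the same group.

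**Figure D4:**
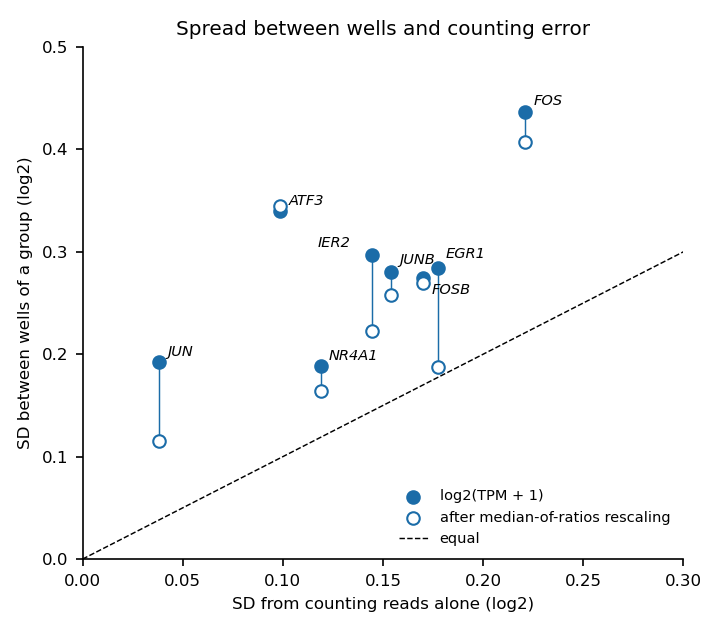
SD between wells of a group on the log2 scale (vertical axis) against the SD that counting reads alone would give (horizontal axis) for 8 members; filled points are log2(TPM + 1), open points are after median-of-ratios rescaling, and the dashed line marks equality. All filled points lie above the line, with ATF3 and JUN, the members with the most reads, farthest from it in proportion. On rescaling JUN, EGR1 and IER2 move down, EGR1 to close to the line, while ATF3 does not.

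Several members shared the wells in which they were high or low. In Day 30 RPMI/B27, replicate 1 was above the group mean for all 8 members and replicate 4 held the lowest value of 6 of the 8. The median-of-ratios factors of these wells, which follow the typical gene, were 1.16 and 0.727. The typical gene was thus also higher in replicate 1 than in replicate 4, and the share of all genes with such a pattern is not given here. In HPLM/B27, replicate 2 held the highest value of 6 of the 8 (FOS, FOSB, JUN, EGR1, NR4A1 and IER2) and the lowest of ATF3. Its median-of-ratios factor was 1.01, against 0.889, 0.948 and 0.900 in replicates 1, 3 and 4, so the typical gene was also highest there. The share of all genes highest in that well is not given here either. In RPMI_glcM/B27, replicate 2 was above the mean for 6 of the 8, and FOS was highest in replicate 3, where JUNB, FOSB and NR4A1 were lowest. Replicate 4 held the lowest JUN and the lowest EGR1 in all 4 groups, and the mean deviation of the 8 members from the group means was -0.30 to -0.08 in the replicate 4 wells and 0.06 to 0.18 in the replicate 2 wells. The median-of-ratios factors were 0.727 to 1.06 in the replicate 4 wells and 1.01 to 1.34 in the replicate 2 wells. RNR1 lay between 3793 and 29276 TPM in the replicate 4 wells and between 49.5 and 619 TPM in the replicate 2 wells. With group means removed, 22 of 28 pairs of members correlated positively over the 16 libraries in the deposited values, with a median r of 0.27. That count depended on the scaling. The share of positive pairs over all genes is not given here, so the count is not read as a trait of the members. After median-of-ratios rescaling r ran from -0.49 (FOS and ATF3) to 0.81 (FOSB and NR4A1), and several positive pairs turned negative. JUN and IER2 went from 0.49 to -0.16 and EGR1 and IER2 from 0.49 to -0.08, while JUN and ATF3 went from 0.45 to 0.51. FOSB and NR4A1 had the highest correlation (Pearson's r = 0.82, permutation p = 0.00062, adjusted over 28 pairs 0.0174; Spearman's rho = 0.76, permutation p = 0.00392, adjusted 0.110). Without the 2 libraries farthest from the median of FOSB, r was 0.72, and after median-of-ratios rescaling it was 0.81. JUN and EGR1 came next (r = 0.74, permutation p = 0.0158, adjusted 0.221; rho = 0.70, permutation p = 0.0219, adjusted 0.306), but their r was -0.03 after rescaling. Only the FOSB and NR4A1 pair passed the adjustment, by Pearson's r and not by Spearman's rho.

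The level of RNR1 moved with the deposited values of some members, and more weakly with their rescaled ones. With group means removed, log2 TPM of RNR1 correlated at r = -0.71 with JUN, -0.67 with EGR1, -0.63 with NR4A1 and -0.70 with IER2 (permutation p = 0.00929, 0.0103, 0.0221 and 0.00539, adjusted over 8 members 0.0274, 0.0274, 0.0441 and 0.0274). Spearman's rho was -0.64, -0.66, -0.64 and -0.67 (permutation p = 0.0151, 0.0109, 0.0352 and 0.00478, adjusted 0.0402, 0.0402, 0.0705 and 0.0382), and without the 2 libraries farthest from the median of RNR1 r was -0.62, -0.57, -0.60 and -0.54. For FOS, FOSB, JUNB and ATF3 r lay between -0.37 and -0.14 and none passed. The wells with the highest RNR1, replicates 3 and 4 of Day 30 RPMI/B27, had median-of-ratios factors of 0.786 and 0.727, so the typical gene was low there too. The share of all genes with such a relation to RNR1 is not given here, so it is not read as a trait of the members. After median-of-ratios rescaling r lay between -0.39 and 0.30 for the 8 members and none passed (lowest adjusted permutation p = 0.549). It was still -0.39 for EGR1 and -0.36 for NR4A1, and 16 libraries cannot exclude a weaker relation. When RNR1 (log2 TPM) was added to the fit as a covariate, JUN stayed called in all 3 comparisons with Day 16 (adjusted p 0.00105 to 0.00131), JUNB in RPMI/B27 and HPLM/B27 (0.0462 and 0.0105) and FOS in HPLM/B27 (0.0318).

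**Figure D5:**
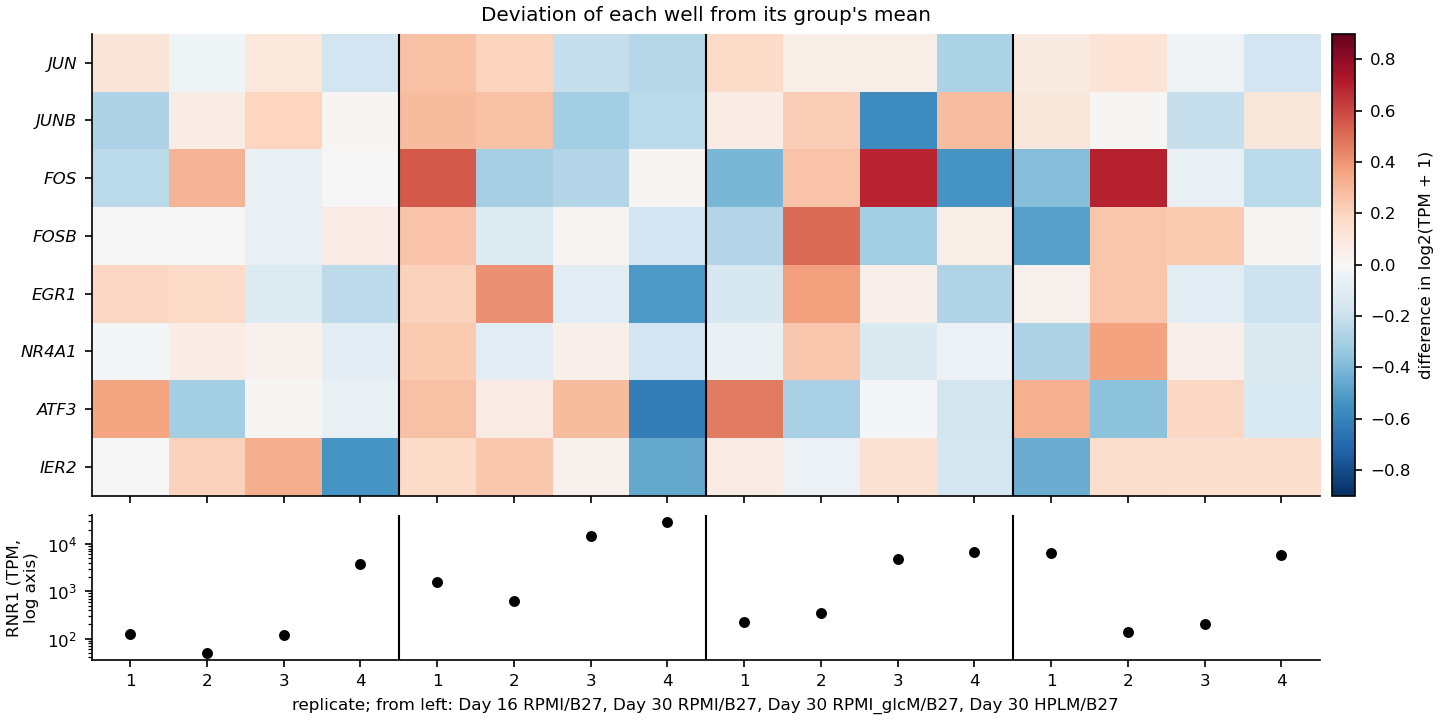
Top, deviation of each well from the mean of its group on log2(TPM + 1) for 8 members (rows) in 16 wells (columns, groups divided by black lines; red is above and blue below the mean). Bottom, RNR1 in the same wells in TPM on a log axis, highest in replicates 3 and 4 of Day 30 RPMI/B27. In both of these wells JUN, JUNB and EGR1 are below their group mean, while FOSB, ATF3, NR4A1 and IER2 are above it in replicate 3 and FOS in replicate 4.

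The genes whose wells moved most like the mean of the 6 members tested were INO80D, DYNC1H1, CDK12, ARF3, ACTR1A and ERBB2, with r from 0.974 to 0.979 over 16 libraries among 9749 genes of at least 5 TPM, a description of points that share library and depth. After median-of-ratios rescaling r was 0.56 to 0.82 for the same genes.

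The wider network around the immediate early genes was described with lists of genes, of which at most 4 are named each. Counts of the main fit against Day 16 are to be read beside the 19.9%, 21.1% and 25.4% of all genes called. Those at an unadjusted p under 0.05 are to be read beside 36.2%, 33.9% and 39.4%, and those of limma-voom beside 21.7%, 29.8% and 29.6%. The share of all genes called after rescaling is not given here, so no departure from the background is read from the rescaled counts of any list. Among the AP-1 partners (9 of 15 tested), 0 were called by limma in any of the 6 comparisons, with median log2 fold changes of -0.18, 0.06 and 0.03 against Day 16. At an unadjusted p under 0.05, 1, 0 and 1 passed against Day 16, after rescaling 2, 2 and 4 were called as higher, and in limma-voom 3, 4 and 5 of 11 were. Among other early transcription factors (15 of 20 tested), KLF10, a TGF-beta-inducible factor, was lower in RPMI_glcM/B27 (4.06 ± 1.19 TPM) and HPLM/B27 (3.83 ± 0.623 TPM) than in Day 30 RPMI/B27 (8.29 ± 2.42 TPM), and differed on the log2 scale by -0.87 (adjusted p = 0.0390) and -0.92 (adjusted p = 0.0295). It was the only one of the 15 called between Day 30 media. CEBPD fell, with log2 fold changes of -0.60 and -0.71 in RPMI_glcM/B27 and HPLM/B27 against Day 16 (adjusted p = 0.0227 and 0.00800), and ETS2 and HES1 fell in HPLM/B27 (log2 fold changes -0.61 and -0.56, adjusted p = 0.0171 and 0.0363). After rescaling KLF10 stayed lower in both media, CEBPD in HPLM/B27 (adjusted p = 0.0479) but not in RPMI_glcM/B27 (0.0746), and ETS2 and HES1 were no longer called (0.0598 and 0.464). After rescaling the counts of this list were 3, 1 and 3 higher and 0, 0 and 1 lower against Day 16, in place of 0 higher and 0, 2 and 3 lower (0%, 13.3% and 20% of the list).

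Upstream kinases and factors (20 of 20 tested) held 5, 4 and 4 lower genes and 0 higher ones against Day 16. These 25%, 20% and 20% lie near the 19.9%, 21.1% and 25.4% of all genes. The medians were -0.40, -0.26 and -0.33, beside -0.28, -0.22 and -0.29 over all genes. After rescaling 3, 2 and 3 were lower and 0, 5 and 5 higher. ELK3, a ternary complex factor that binds with serum response factor, was at 17.4 ± 2.42 TPM at Day 16, 10.3 ± 2.88 TPM in Day 30 RPMI/B27, 5.48 ± 1.18 TPM in RPMI_glcM/B27 and 5.13 ± 0.670 TPM in HPLM/B27 (SD, n = 4). It fell against Day 16, with log2 fold changes of -0.72, -1.51 and -1.58 (adjusted p = 0.0124, 3.26e-05 and 2.34e-05), and in RPMI_glcM/B27 and HPLM/B27 against Day 30 RPMI/B27 (log2 fold changes -0.79 and -0.86, adjusted p = 0.0321 and 0.0186). MRTFB, a myocardin-related coactivator of serum response factor, fell against Day 16 (log2 fold changes -0.66, -0.73 and -0.69, adjusted p = 0.0171, 0.00794 and 0.00972), its relative MRTFA in RPMI_glcM/B27 and HPLM/B27 (log2 fold changes -0.44 and -0.62, adjusted p = 0.0304 and 0.00423), and RPS6KA1, the kinase RSK1 downstream of ERK, in all 3 groups (log2 fold changes -0.96, -0.67 and -0.73, adjusted p = 0.00537, 0.0319 and 0.0188). After rescaling ELK3 and MRTFB stayed lower in all 3 comparisons with Day 16. RPS6KA1 stayed so in RPMI/B27 but not in RPMI_glcM/B27 or HPLM/B27 (adjusted p = 0.0558 and 0.0572), and MRTFA stayed so in HPLM/B27 but not in RPMI_glcM/B27 (log2 difference -0.19, adjusted p = 0.139).

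Feedback regulators, which shut the early response down (23 of 25 tested), held 6, 7 and 5 lower genes and 0, 1 and 1 higher against Day 16. That was 26.1%, 34.8% and 26.1% called, beside 19.9%, 21.1% and 25.4% of all genes. Between Day 30 media limma called 0, against 5, 4 and 3 at an unadjusted p under 0.05 and 5, 5 and 1 in limma-voom. Over all genes, 14.9%, 15.2% and 6.53% passed at that unadjusted p, and limma-voom called 12.7%, 16% and 1.74%. DUSP6, a phosphatase for ERK, went from 9.46 ± 2.91 TPM to 1.58 ± 0.437, 1.86 ± 0.565 and 2.25 ± 0.546 TPM with log2 fold changes of -1.99, -1.85 and -1.65 (adjusted p at most 0.000110). SPRY4 (-1.46, -1.72 and -1.10), SPRED2 (-1.24, -1.04 and -0.80) and SPRY2 (-0.86, -0.55 and -0.90), known inhibitors of ERK signalling, fell in all 3 groups. DUSP6, SPRY4 and SPRED2 stayed lower in all 3 comparisons after rescaling, SPRY2 in RPMI/B27 and HPLM/B27 but not in RPMI_glcM/B27 (-0.29, adjusted p = 0.123), and the counts of the list were then 5, 4 and 5 higher and 6, 5 and 4 lower. All 3 comparisons share the Day 16 wells.

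Early effectors, the secreted and cytoplasmic products of the early response (15 of the 19 in the file tested), held 5, 7 and 2 lower genes and 0 higher against Day 16. That was 33.3%, 46.7% and 13.3% called, beside 19.9%, 21.1% and 25.4% of all genes. CCN2, a matrix-associated signalling protein, was at 42.4 ± 18.8, 28.4 ± 4.70 and 32.1 ± 11.5 TPM in the 3 Day 30 groups and fell against Day 16 (log2 fold changes -1.28, -1.76 and -1.64), and its relative CCN1 fell in RPMI/B27 (-0.91) and RPMI_glcM/B27 (-1.23). CXCL8, a chemokine, fell in RPMI_glcM/B27 against Day 16 (log2 fold change -1.04, adjusted p = 0.00487). After rescaling the falls in RPMI/B27 were no longer called for CCN2 (adjusted p = 0.0648) or CCN1 (0.127), while those of CCN2 in the other media and of CCN1 and CXCL8 in RPMI_glcM/B27 were. Between the Day 30 media, 1 gene of the list was lower in RPMI_glcM/B27 than in RPMI/B27, and 1 was higher in HPLM/B27 than in RPMI/B27. The latter, PLK2, a kinase picked here after its values were seen, had a mean of 50.0 ± 7.02 TPM in the former and 29.1 ± 10.3 TPM in the latter medium (SD, n = 4; log2 difference 0.82, adjusted p = 0.0378). After rescaling, 2, 6 and 1 genes of the list were lower and 1, 1 and 2 higher against Day 16. Several of these genes are also expressed by fibroblasts and smooth muscle cells, whose marker sums are given above and whose part in these counts was not tested.

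Heat shock genes, a check for a stress response (11 of 14 tested), held 2, 2 and 7 lower genes and 0 higher against Day 16. That was 18.2%, 18.2% and 63.6% called, beside 19.9%, 21.1% and 25.4% of all genes. Of this list 1 gene, HSP90AB1, was lower in HPLM/B27 than in Day 30 RPMI/B27 (log2 fold change -0.49, adjusted p = 0.00577 in limma). HSP90AB1 was at 460 ± 19.5 TPM at Day 16 and 279 ± 14.3 TPM in HPLM/B27, HSPD1 at 301 ± 17.9 and 218 ± 17.5 TPM, HSPA8 at 427 ± 123 and 236 ± 32.9 TPM and HSPA5 at 191 ± 24.1 and 117 ± 59.1 TPM (SD, n = 4). After rescaling, 0 of the list were lower in HPLM/B27 than at Day 16 and 2 were higher.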

How the data were processed

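RNA of 16 wells was sequenced by the authors as stranded total RNA libraries, aligned to hg38 with decoy sequences with STAR 2.5.3a and counted with featureCounts 2.0.3. The authors deposited TPM per gene symbol. The annotation, the gene lengths and the strand setting of the counting are not given in the sources used here, so reads of overlapping genes may be shared. DESeq2, used in the study on counts, was not used, since the deposited unit is TPM.

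Groups came from the labels. The 16122 genes whose mean reached 1 TPM were tested with limma 3.58.1 in R 4.3.3 on log2(TPM + 1), all 4 groups in the fit, eBayes with a trend, Benjamini-Hochberg adjustment over 16122 genes within a comparison, threshold 0.05. Only the rows of the members and of the lists are printed. FOSB and NR4A1 were tested by two-sided exact permutation of 4 wells against 4 (smallest p 0.0286). Correlations were tested with 100000 permutations of libraries within their group. Whole reads were recovered for all 31047 genes above 0 in any library, and in 1255 of 1269 short RNA genes the implied length was the annotated one or divided it evenly. The reads were tested with limma-voom (mean of at least 10 reads, median-of-ratios factors). The scripts were tested on simulated data.

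The alternatives tried were median-of-ratios rescaling, a pseudocount of 0.1, no filter beyond being above 0, a filter at 5 TPM, only the 2 groups compared, a replicate block, log2 TPM of RNR1 as a covariate, limma-voom, and each library left out. The ratios to JUND and FOSL2, limma-voom without each library and the correlations after rescaling were added after the data were seen. The members and lists were chosen with earlier results of these data known. All 10 members are described in every group, KLF4 and IER3 by their reads alone. Of each other list, at most 4 genes are named, those with the largest absolute log2 fold change among the called ones, and the 6 genes most like the mean of the members tested. A gene of the early effectors that this rule picks is not reported here. Intervals from counts and floors of 3 reads cover counting error only. Gene positions and the promoter table are RefSeq GRCh38, and all 35116 promoter sequences equalled the hg38 genome. No libraries held identical values. Tables were made with pandas 2.3.3, scipy 1.17.1 and numpy 2.4.6 and figures with matplotlib 3.10.9, in Python 3.11.15.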

Additional observations from a re-analysis of the deposited data

Results flagged for a closer look

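Of 32 groups of 4 wells examined (8 members in 4 groups), 1 held a well far from the others, where chance gives about 1 in 20. In HPLM/B27, IER2 was at 5.66 TPM in replicate 1, while the other 3 wells lay between 9.01 and 9.13 TPM. The gap was 0.966 of the range of the group, above Dixon's 95% critical value for 4 samples.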

How the results depend on the processing

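No alternative changed the sign of a difference that was called in any fit. Signs did change for differences that no fit called. After median-of-ratios rescaling the log2 differences from Day 16 became positive for FOS (0.11), EGR1 (0.14), IER2 (0.23) and NR4A1 (0.0605) in RPMI/B27, for FOS (0.13), EGR1 (0.0840), ATF3 (0.10) and NR4A1 (0.0592) in RPMI_glcM/B27 and for FOSB (0.0176) in HPLM/B27. Between Day 30 media they became 0.0668 for JUN in HPLM/B27 against RPMI_glcM/B27 and -0.00136 for NR4A1 in RPMI_glcM/B27 against RPMI/B27. In limma-voom they were 0.0489 (FOS), 0.23 (EGR1) and 0.26 (IER2) in RPMI/B27, 0.12 (FOS), 0.11 (EGR1) and 0.14 (ATF3) in RPMI_glcM/B27, and 0.0668 for JUN in HPLM/B27 against RPMI_glcM/B27. With RNR1 as a covariate they were 0.0717 (FOS), 0.21 (EGR1) and 0.24 (IER2) in RPMI/B27, 0.0668 (FOS) and 0.0631 (EGR1) in RPMI_glcM/B27, and -0.00493 for FOS in RPMI_glcM/B27 against RPMI/B27.

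Leaving out a library also took some uncalled differences across 0. Against Day 16 the ranges were -0.23 to 0.0856 (EGR1), -0.0520 to 0.26 (ATF3) and -0.26 to 0.0683 (IER2) in RPMI/B27, -0.26 to 0.14 (FOS) in RPMI_glcM/B27 and -0.0142 to 0.22 (ATF3) in HPLM/B27. In RPMI_glcM/B27 against RPMI/B27 they were -0.16 to 0.25 (FOS), -0.15 to 0.0295 (JUN), -0.25 to 0.0416 (JUNB) and -0.19 to 0.12 (EGR1). In HPLM/B27 they were -0.16 to 0.0113 (JUN), -0.0329 to 0.16 (JUNB) and -0.16 to 0.17 (ATF3) against RPMI/B27, and -0.11 to 0.0479 (JUN) against RPMI_glcM/B27.

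Of the members called against Day 16, the 2 in Day 30 RPMI/B27 became 0 with only the 2 groups in the fit. The 1 called in RPMI_glcM/B27 became 2 with all genes above 0 or with median-of-ratios rescaling, and 3 in limma-voom. The 3 called in HPLM/B27 became 5 in limma-voom. Between Day 30 media, the 0 called in RPMI_glcM/B27 against RPMI/B27 became 1 after rescaling and 1 in limma-voom, the 0 in HPLM/B27 against RPMI/B27 became 1 and 2, and the 0 in HPLM/B27 against RPMI_glcM/B27 became 1 in limma-voom. Leaving out a library gave 1 to 2 members in Day 30 RPMI/B27, 0 to 2 in RPMI_glcM/B27 and 2 to 3 in HPLM/B27 against Day 16, and 0 between Day 30 media. The cause was not tested.

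Over all genes, the deviations of same-numbered wells correlated at -0.07 to 0.21, no comparison had every pair above 0.1, and 7 of 16 libraries were closest to a library of their own number, so the numbers were not taken to pair the wells. Some members did share low or high wells by number, as described for replicates 4 and 2 in the report. With the replicate block, 2 members in place of 1 were called in RPMI_glcM/B27 against Day 16, the added one being IER2 (adjusted p = 0.0430 in limma), and the block changed no other count of members, while the standard error of JUN went from 0.14 to 0.09. Over all genes it called 721, 732 and 48 between the Day 30 media, in place of 354, 388 and 11.

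Counts over all genes depended more on the setting. The 3203 in Day 30 RPMI/B27 against Day 16 ranged from 998 to 4734 over the alternatives and from 1761 to 5012 with a library left out. The 354 in RPMI_glcM/B27 against RPMI/B27 ranged from 45 to 1965, the 388 in HPLM/B27 against RPMI/B27 from 81 to 2471, and the 11 in HPLM/B27 against RPMI_glcM/B27 from 10 to 268. In limma-voom 1603 genes were higher and 1749 lower in Day 30 RPMI/B27 than at Day 16, in place of 336 and 2867. The SD of FOSB between wells was 0.64 with a pseudocount of 0.1, in place of 0.27. FOS, FOSB, EGR1 and NR4A1 rest on at most 70 reads per library, which limits the differences that could be detected.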
